A study of Homo sapiens with 3 samples.

Results

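The hypoxia-inducible factor (HIF) genes were followed in A498 cells, a line from a human kidney carcinoma that lacks functional VHL. The set comprised the α-subunit genes EPAS1 and HIF1A and 8 HIF targets: EGLN3, VEGFA, ADM, SLC2A1, PFKFB3, HILPDA, NDRG1 and CA9. Members were the probe sets annotated to 1 gene with these symbols. They numbered 42 of the 49386 probe sets and covered 9 of the 10 genes, out of 18239 genes in all. CA9 had no such probe set and was not analysed here. Of the 42 probe sets, 39 passed the filter on low signal, which required the highest of the 3 values to reach the median of all values (4.88). All 9 genes passed it through at least 1 probe set, as did 11653 genes of the series.

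Messenger RNA was measured on 3 Affymetrix arrays, 1 for each culture, so no difference below has a replicate check or a p-value. All 3 are labelled as experiment 2. The first culture received E. coli 83972, a urinary tract strain carried without symptoms, for 4 h. The labels disagree on the amount of bacteria, and no dose is given. The second received 60 µM DRB for 4 h, a nucleoside analogue that inhibits CDK9 and thereby elongation by RNA polymerase II. The control received 0.08% DMSO for 4 h. DMSO is stated for the control alone, and its effect cannot be told apart from those of the bacterium or of DRB. All 3 cultures were confluent layers of this 1 cell line in serum-free medium with gentamicin.

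HIF is a dimer of an α subunit and the constant partner ARNT. In cells with oxygen, EGLN enzymes hydroxylate the α subunit and the VHL ubiquitin ligase then marks it for degradation. Without functional VHL the α subunits escape this step, and the targets of HIF are active in kidney carcinoma cells at normal oxygen. Control of this kind acts on protein, which the arrays did not measure. HIF binds hypoxia response elements with the core ACGTG or GCGTG.

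The promoters of 3 targets whose levels are described below, PFKFB3, ADM and EGLN3, show where such cores stand next to genes of the set. They are the 250 bases before the RefSeq gene start on GRCh38.p14, 5′ to 3′ on the gene's strand, with each ACGTG or GCGTG of either strand in capitals. PFKFB3 lies at chr10:6144671-6144920 on the plus strand, ADM at chr11:10304823-10305072 on the plus strand and EGLN3 at chr14:33951075-33951324 on the minus strand.
PFKFB3: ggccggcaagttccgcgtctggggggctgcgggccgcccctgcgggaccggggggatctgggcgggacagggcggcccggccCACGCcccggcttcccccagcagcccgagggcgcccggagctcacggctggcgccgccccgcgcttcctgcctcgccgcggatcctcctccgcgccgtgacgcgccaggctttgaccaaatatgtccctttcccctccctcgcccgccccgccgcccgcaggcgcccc
ADM: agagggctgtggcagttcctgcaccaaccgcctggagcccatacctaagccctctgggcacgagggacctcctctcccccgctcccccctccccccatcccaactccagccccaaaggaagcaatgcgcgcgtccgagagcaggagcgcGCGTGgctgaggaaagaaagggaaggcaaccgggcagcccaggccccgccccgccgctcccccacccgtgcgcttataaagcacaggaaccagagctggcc
EGLN3: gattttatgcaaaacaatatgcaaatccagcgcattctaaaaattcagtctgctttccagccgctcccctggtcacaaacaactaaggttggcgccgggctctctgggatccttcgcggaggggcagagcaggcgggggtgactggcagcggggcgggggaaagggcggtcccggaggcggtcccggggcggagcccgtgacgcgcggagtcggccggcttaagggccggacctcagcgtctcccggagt
PFKFB3 held 1 match, a GCGTG on the opposite strand that reads as CACGC and begins 168 bases before the start. ADM held 1 match, a GCGTG that begins 101 bases before the start. EGLN3 held 0 in this window, which says only that these letters are not in these 250 bases. Of 35116 promoter windows of this length, 43.2% held at least 1 match to either core and 18.5% held ACGTG, so a match is common. A core that forms the palindrome CACGTG, also read by other helix-loop-helix factors, counts on both strands. The arrays carried no measure of binding.

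Levels are log2 values as deposited, and a difference is 1 array minus another. A gene's level is that of its brightest probe set, the one with the highest mean over the 3 arrays. As a measure of technical error, the disagreement between the 2 brightest kept probe sets was taken over 6317 genes. Each standard deviation given here is that of the disagreement divided by the square root of 2. It thus stands for 1 probe set and takes the errors of the 2 as independent. For a difference from control the standard deviation was 0.18 (E. coli 83972) or 0.32 (DRB), and for E. coli 83972 minus DRB it was 0.35. A robust standard deviation, which gives less weight to a few large disagreements, was 0.12, 0.15 and 0.17 in the same order. Neither holds any variation between cultures. Probe sets of a gene can share probes and are not replicates. Fewer cells and less RNA per cell cannot be told apart in such values.

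**Figure D1:**
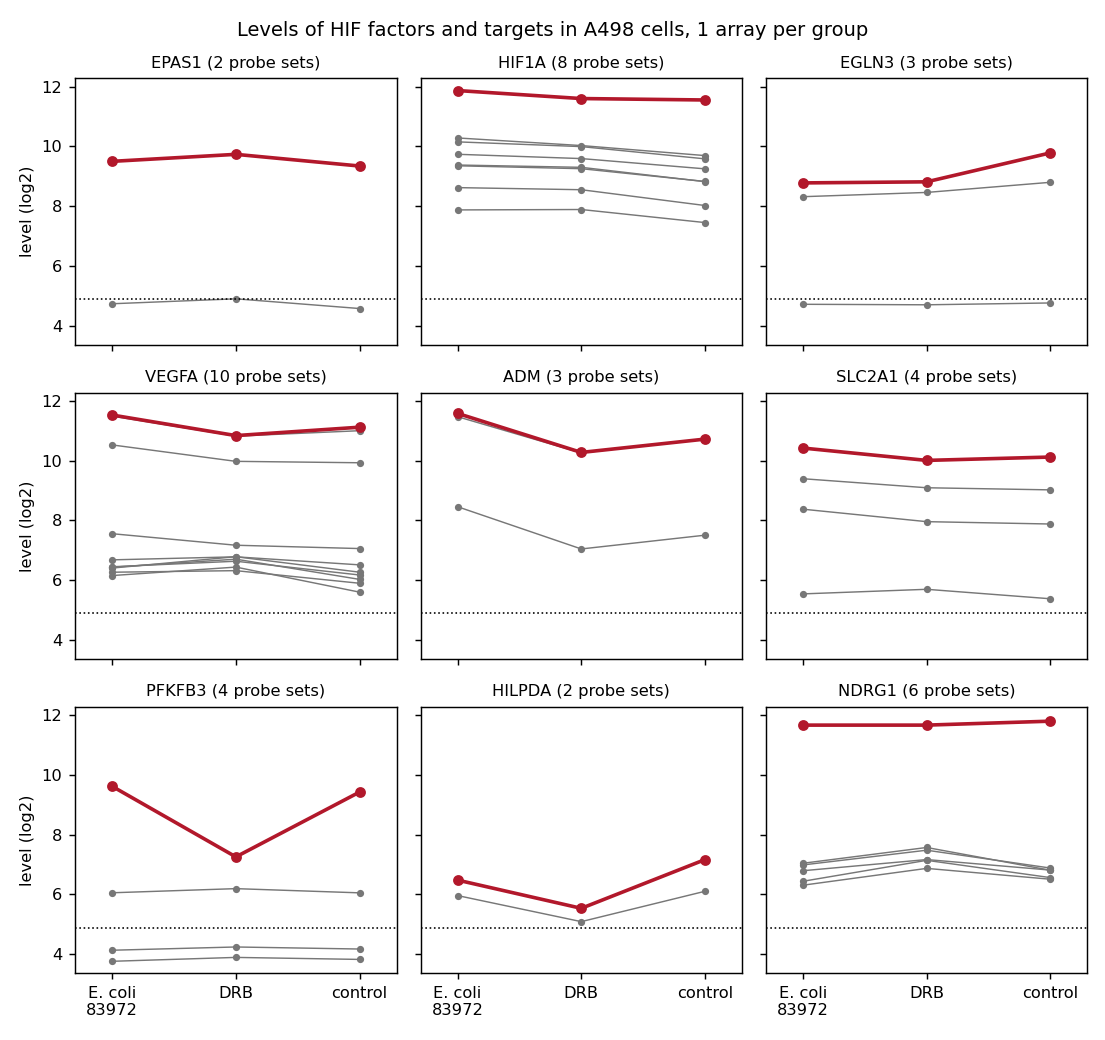
Levels (log2, vertical axis) of every probe set of the 9 measured genes on the E. coli 83972, DRB and control arrays. The red line is the brightest probe set of each gene, grey lines are the others, and the dotted line is the filter level of 4.88. PFKFB3 and HILPDA dip on the DRB array in their brightest probe sets, ADM peaks on the E. coli 83972 array, and EGLN3 is highest on the control array.

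Neither gene of the α subunits was near 2-fold. EPAS1, which encodes HIF-2α, the subunit tied most closely to growth of kidney carcinoma cells, read 9.50 on the E. coli 83972 array, 9.73 on the DRB array and 9.34 on the control array. Its differences from control were 0.16 with E. coli 83972 and 0.39 with DRB. The first turned below 0 with centring on all spike-ins or on hybridization spike-ins, and the second with centring on all or on poly-A spike-ins. Neighbouring levels in the order DRB, E. coli 83972, control differed by less than the plain technical standard deviation and by more than the robust one. DRB against control was beyond both. The dimmer EPAS1 probe set read 4.73, 4.90 and 4.57 on the E. coli 83972, DRB and control arrays. It passed the filter level of 4.88 through the DRB array alone. Its differences of 0.16 and 0.33 are therefore no check on those of the brightest probe set.

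HIF1A, which encodes HIF-1α, read 11.87 with E. coli 83972, 11.60 with DRB and 11.55 in the control. It was higher by 0.32 with E. coli 83972, and it remained above 0 under the 4 other scalings, between 0.06 and 0.38. All 8 HIF1A probe sets were higher with E. coli 83972 than in the control, by 0.32 to 0.60. Among 84 genes with 8 or more kept probe sets, 19% had all of them higher in this comparison. With DRB the brightest HIF1A probe set differed by 0.05, which is within technical error and turned below 0 under the 3 spike-in centrings. The other HIF1A probe sets lay further above control with DRB, between 0.34 and 0.53, and the mean over all 8 was 0.38. Of the 84 genes, 46.4% had all probe sets higher there.

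EGLN3 encodes a prolyl hydroxylase that acts on the α subunits and is itself a HIF target. In cells with functional VHL, which A498 lacks, it is thereby part of a feedback loop. EGLN3 read 8.78 with E. coli 83972, 8.81 with DRB and 9.78 in the control. The control array was thus the highest, and the treated arrays differed from each other by only −0.04. Both differences from control subtract that 1 control array and are not independent. EGLN3 was 2.01-fold lower with E. coli 83972 (log2 −1.01), just past the 2-fold threshold, and 1.96-fold lower with DRB (−0.97), just short of it. The second probe set read 8.31, 8.46 and 8.80 in the same order and gave smaller differences, −0.48 and −0.34. The remaining EGLN3 probe set was under the filter level on all 3 arrays. The size therefore depended on the probe set, while the sign did not among those kept.

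The secreted factors came next. ADM, which encodes the vasodilator peptide adrenomedullin, read 11.58 with E. coli 83972, 10.27 with DRB and 10.72 in the control. It was 1.81-fold higher with E. coli 83972 (0.86), a difference larger than that of 97.3% of kept genes, and stood at −0.45 with DRB. Its 3 probe sets agreed, with 0.74 to 0.95 for E. coli 83972 and −0.48 to −0.45 for DRB. Both signs were the same under the 4 other scalings.

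VEGFA, the growth factor of blood vessels, read 11.52 with E. coli 83972, 10.84 with DRB and 11.12 in the control. It was 1.33-fold higher with E. coli 83972 (0.41), and lay between 0.15 and 0.47 under the 4 other scalings. As deposited all 10 of its probe sets were higher, by 0.14 to 0.60. Centring on hybridization spike-ins lowers each by 0.25, which puts the lowest of them below 0. Among 84 genes with 8 or more kept probe sets, 19% had all of them higher as deposited. With DRB the VEGFA probe sets did not agree in sign. The brightest pair of probe sets lay at −0.28 and −0.18, and the other 8 lay between 0.05 and 0.84. The VEGFA probe set with 0.84, which read 6.15, 6.43 and 5.60 on the E. coli 83972, DRB and control arrays, was among the dimmest. Over all 9548 probe sets with a mean level of 6 to 8 the median DRB difference was 0.06 and the 97.5th percentile 0.69. No direction with DRB can therefore be given for VEGFA.

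Glucose handling was represented by SLC2A1 and PFKFB3. SLC2A1, the gene of the glucose transporter GLUT1, read 10.42 with E. coli 83972, 10.01 with DRB and 10.12 in the control. It was higher by 0.30 with E. coli 83972, or 0.048 with centring on hybridization spike-ins, which is within technical error. As deposited 4 of 4 probe sets were higher (0.16 to 0.50), the lowest by less than the 0.25 that this centring takes off. The DRB difference of SLC2A1, −0.11, was within technical error, and the other 3 probe sets were above control.

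PFKFB3, a kinase and phosphatase that makes the activator of phosphofructokinase, read 9.61 with E. coli 83972, 7.25 with DRB and 9.42 in the control. The DRB array stood apart, 4.50-fold below control (−2.17), while E. coli 83972 differed from control by 0.19, or −0.06 with centring on hybridization spike-ins. Only 1.80% of kept genes had a lower DRB difference. This rests on 1 probe set. The other PFKFB3 probe set above the filter read 6.05, 6.19 and 6.05 and differed by 0.14 with DRB, and another pair was under the filter on all arrays.

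HILPDA, a small protein of lipid droplets that inhibits triglyceride breakdown, read 6.47 with E. coli 83972, 5.53 with DRB and 7.16 in the control. Its order was control, E. coli 83972, DRB, each step larger than the technical error. With DRB it was 3.10-fold lower (−1.63), and both probe sets were past 2-fold (−1.63 and −1.02). With E. coli 83972 it was 1.61-fold lower (−0.69), and the second probe set gave −0.14. Its DRB value lay close to the filter level, where RMA compresses differences.

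NDRG1, a stress-responsive gene that HIF induces, was close to equal on all arrays in its brightest probe set, which read 11.66 with E. coli 83972, 11.66 with DRB and 11.80 in the control. Both differences from control were −0.13. The other 5 NDRG1 probe sets, with levels of 6.30 to 7.57, were all higher with DRB, by 0.35 to 0.76, and lay between −0.20 and 0.23 with E. coli 83972.

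**Figure D2:**
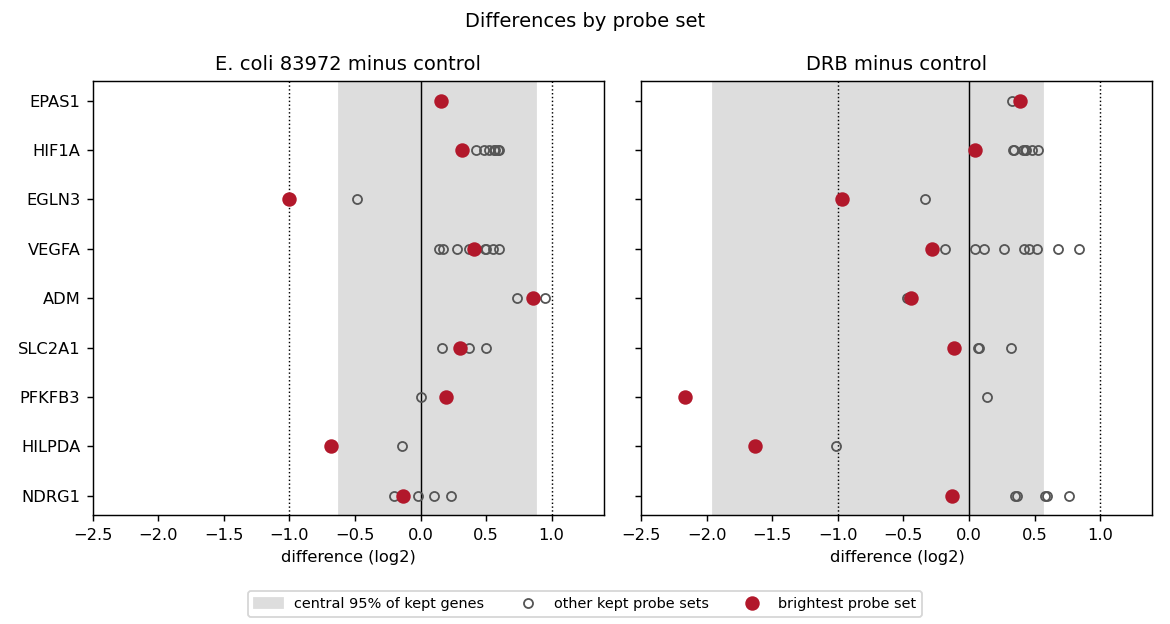
Differences (log2, horizontal axis) of the kept probe sets of each gene, for E. coli 83972 minus control on the left and DRB minus control on the right. Red points are the brightest probe sets, open points the others, the grey band spans the central 95% of kept genes and dotted lines mark 2-fold. With E. coli 83972 the HIF1A, VEGFA, ADM and SLC2A1 probe sets all lie above 0 as deposited. Centring on hybridization spike-ins puts the lowest VEGFA and SLC2A1 ones below 0. With DRB only PFKFB3 and HILPDA pass 2-fold, and PFKFB3 does so in 1 of 2 kept probe sets. Some spike-in centrings turn a brightest probe set below 0. On the left, EPAS1 turns with centring on all or on hybridization spike-ins, and PFKFB3 with hybridization spike-ins only. On the right, EPAS1 turns with all or poly-A spike-ins, and HIF1A with each of the 3 centrings.

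Set against control, the E. coli 83972 array shows host transcripts after 4 h with the bacterium. Of the 9 genes 1 was at least 2-fold lower, EGLN3, against 0.652% of all kept genes, and 0 were at least 2-fold higher, against 1.91%. Among all kept genes 74.5% of those past 2-fold were higher as deposited, against 57.6%, 59.8% and 45.3% with centring on all, poly-A and hybridization spike-ins. The median of the 9 genes was 0.19 (−0.062 with centring on hybridization spike-ins), against −0.03 over all kept genes. Of the 9, 6 were above 0 and 3 below, and of the 11653 kept genes 5271 were above 0 and 6380 below. With the mean over a gene's probe sets EGLN3 was at −0.51, and 0 of 9 genes passed 2-fold. At 1.5-fold ADM was counted as higher, against 5.19% of kept genes, and EGLN3 and HILPDA as lower, against 3.06%.

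Set against control, the DRB array shows transcripts after elongation had been inhibited for 4 h. Of the 9 genes 2 were at least 2-fold lower, PFKFB3 and HILPDA, against 10.2% of all kept genes, and 0 were higher, against 0.129%. The median of the 9 was −0.28, against 0.05 over all kept genes. Of the 9, 7 were below 0 and 2 above. Among the 11653 kept genes, 5147 were below 0 and 6505 above. The sign count depended on the probe set, since 27 of the 39 kept probe sets of the 9 genes were higher with DRB and 12 lower. The dimmer EPAS1 probe set, among those higher, was kept through its DRB value alone. With the mean over probe sets the median of the 9 was 0.089 and PFKFB3 was at −0.47, so HILPDA (−1.32) alone passed 2-fold. At 1.5-fold EGLN3 was also counted as lower, against 18.1% of kept genes, and 0 of 9 were higher, against 2.03%. RMA makes the arrays nearly alike in distribution, so a loss shared by most transcripts can be hidden. The spike-ins, transcripts added to every sample or hybridization, had median DRB differences of 0.65 (poly-A), 0.58 (all) and 0.21 (hybridization), and centring on them lowers every gene by that amount. Their medians for E. coli 83972 against control were 0.14, 0.16 and 0.25. Relative to the median of all kept genes the DRB differences were −2.22 for PFKFB3, −1.68 for HILPDA, −1.02 for EGLN3 and −0.50 for ADM. That of EPAS1 was 0.34 and that of HIF1A −0.0039. The HIF1A value is that of its brightest probe set, which had the smallest DRB difference of its 8. Their mean difference from control was 0.38.

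**Figure D3:**
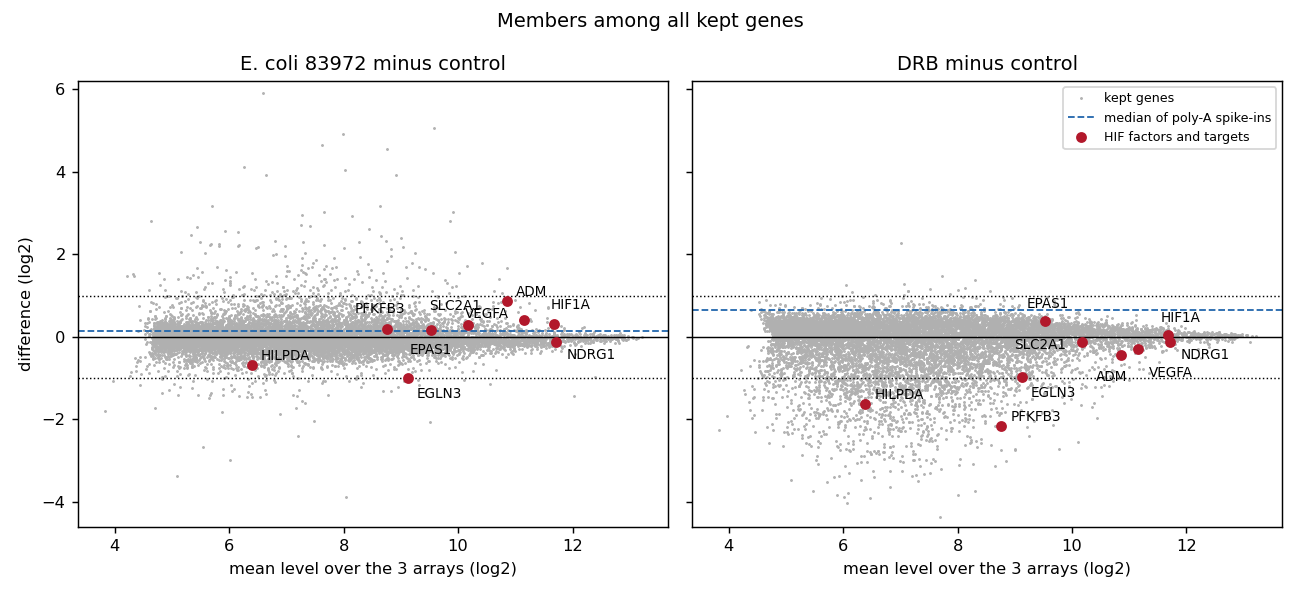
Difference (log2, vertical axis) against mean level over the 3 arrays (log2, horizontal axis) for the 11653 kept genes (grey) and the 9 HIF factors and targets (red), with E. coli 83972 minus control on the left and DRB minus control on the right. Dotted lines mark 2-fold, and the dashed line is the median of the poly-A spike-ins, which would be the zero line under that centring. PFKFB3 and HILPDA lie in the lower part of the DRB cloud, EGLN3 lies at about −1 in both panels, and ADM lies near the upper edge of the cloud at its level with E. coli 83972.

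E. coli 83972 and DRB were also set against each other. These values use the same arrays as both comparisons above. Of the 9 genes 2 were at least 2-fold higher with E. coli 83972 than with DRB, PFKFB3 (5.14-fold, 2.36) and ADM (2.47-fold, 1.31), against 12.3% of all kept genes, and 0 were lower, against 0.386%. The other kept PFKFB3 probe set gave −0.14 and the mean over its probe sets was 0.50, so that call rests on 1 probe set. For ADM all 3 probe sets passed 2-fold (1.21 to 1.41). HILPDA followed at 0.94 and VEGFA at 0.69, both past 1.5-fold, which 19.3% of kept genes were in this direction and 5.72% in the other. The second HILPDA probe set gave 0.87. The VEGFA probe sets did not agree in sign here either, with 4 of 10 above 0 and 6 below, from −0.38 to 0.69 with a mean of 0.10. NDRG1 read the same on both arrays (0.00) and lay between −0.11 and 0.53 under the 4 other scalings. EGLN3 differed by −0.04, and its sign turned under 3 of them. The other 5 NDRG1 probe sets were all lower with E. coli 83972 than with DRB, at −0.70 to −0.37, and the mean over its probe sets was −0.44.

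For each gene at least 2-fold from control, the kept genes with the most similar pair of differences from control were listed. Likeness was the Euclidean distance between the pairs, over 3 arrays. Those nearest to PFKFB3 were CCP110 (distance 0.04), GORAB (0.06) and RAB11FIP2 (0.07). Those nearest to HILPDA were C2orf42 (0.01), BCLAF3 (0.02) and POLG2 (0.09). Those nearest to EGLN3 were FZD1 (0.09), PRPF38B (0.09) and PPM1D (0.11).

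The rest of the pathway was described through 8 lists of HIF subunits, regulators and targets. Beside the 9 genes they held 80 genes, of which 75 were measured and 68 kept. With E. coli 83972, 2 of the 68 were at least 2-fold higher (2.94%, against 1.91% of all kept genes) and 1 lower (1.47%, against 0.652%), and their median was 0.01. With DRB, 6 were lower (8.82%, against 10.2%) and 1 higher (1.47%, against 0.129%), with a median of −0.03. These are counts of a few genes, and the share lower with DRB was near that of all kept genes. The gene higher with DRB, BHLHE40, was not past 2-fold under any of the 3 spike-in centrings.

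Among the regulators, VHL mRNA gave signal on every array, at 6.94 with E. coli 83972, 5.89 with DRB and 6.72 in the control. Its DRB difference was −0.83, and the second VHL probe set gave −0.16. ARNT, the constant partner, read 5.10, 4.49 and 4.93, close to the filter level, and ARNT2 read 6.91, 6.71 and 6.41. The second ARNT2 probe set differed from control by −0.07 with E. coli 83972 and 0.03 with DRB. EGLN1, the main oxygen-sensing hydroxylase, differed by 0.23 with E. coli 83972 and −0.32 with DRB, and EGLN2 by 0.23 and −0.39. Unlike EGLN3, neither was near 2-fold in either comparison.

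SIAH1 and SIAH2, ubiquitin ligases of which SIAH2 is known to degrade EGLN3, were the regulators with the largest DRB differences. SIAH1 read 8.74 with E. coli 83972, 5.00 with DRB and 7.97 in the control, a DRB difference of −2.97, and its 4 kept probe sets lay between −2.97 and −1.73. SIAH2 read 8.64, 6.26 and 7.70, a DRB difference of −1.44, or −0.30 in its other probe set. With E. coli 83972 they differed by 0.78 and 0.93. The coactivator genes EP300 and CREBBP, whose products bind the α subunit, differed by 0.56 and 0.54 with E. coli 83972 and by −0.70 and −0.73 with DRB. EP300 had 1 kept probe set, and the 5 of CREBBP did not agree in sign with DRB, 2 being higher and 3 lower, from −1.16 to 0.13. CITED2, a HIF target that competes for that binding, differed by −0.64 and −0.78.

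Of 18 kept glycolysis targets 0 were 2-fold different with E. coli 83972 (median −0.03), where 1.91% of all kept genes were higher and 0.652% lower. With DRB PFKFB3 alone was (5.56%, against 10.2% of kept genes lower, median 0.02), so neither count stood apart from all kept genes. PGK1, LDHA and GAPDH, enzymes of the pathway, differed from control by 0.09, −0.01 and −0.01 with DRB. By the brightest probe set HK2, a hexokinase, had the highest difference in the list with E. coli 83972 (0.58), but its other probe set gave 0.03. PFKFB4, a relative of PFKFB3 with 1 kept probe set, had the lowest (−0.51).

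Of 8 kept vascular targets, EDN1 alone was at least 2-fold lower with E. coli 83972 (−1.08). That is 12.5% of the list, against 0.652% of all kept genes, but it is 1 gene. EDN1, the gene of the vasoconstrictor endothelin 1, read 4.88, 5.24 and 5.96 on the E. coli 83972, DRB and control arrays. These levels are close to the filter level, and its second probe set gave −0.62. CXCR4, a chemokine receptor, read 11.20, 9.16 and 10.76 and was 2-fold lower with DRB in all 4 probe sets (−1.67 to −1.61). It was the only vascular target past 2-fold there (12.5%, against 10.2% of all kept genes lower). Of 5 kept lipid, pH and iron targets HILPDA alone passed 2-fold, with DRB (20%, against the same 10.2%). Either share is 1 gene. The lipid droplet gene PLIN2 differed by 0.17 with E. coli 83972 and −0.61 with DRB, and LPIN1, of triglyceride synthesis, by −0.49 and −0.89.

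Stress and survival targets held 9 kept genes. PMAIP1, which encodes the cell death protein NOXA, read 10.92, 7.96 and 8.88 and was higher by 2.04 with E. coli 83972. MCL1, a survival protein with a short-lived mRNA, read 9.94, 6.80 and 9.80 and had a DRB difference of −3.00, but its 5 kept probe sets ranged from −4.13 to 0.45. Among 18 kept chromatin, collagen and transcription targets, STC2, which encodes the glycoprotein stanniocalcin 2, read 8.46, 6.00 and 6.49 and was higher by 1.97 with E. coli 83972, in 3 of 3 probe sets. KDM3A, a histone H3 demethylase, read 8.36, 5.79 and 7.91, with a DRB difference of −2.12 and all 3 probe sets between −2.12 and −1.42. The related repressor genes BHLHE40 and BHLHE41 stood on opposite sides of control with DRB, at 1.15 and −1.33, each measured by 1 kept probe set. BHLHE40 was not past 2-fold under any of the 3 spike-in centrings.

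**Figure D4:**
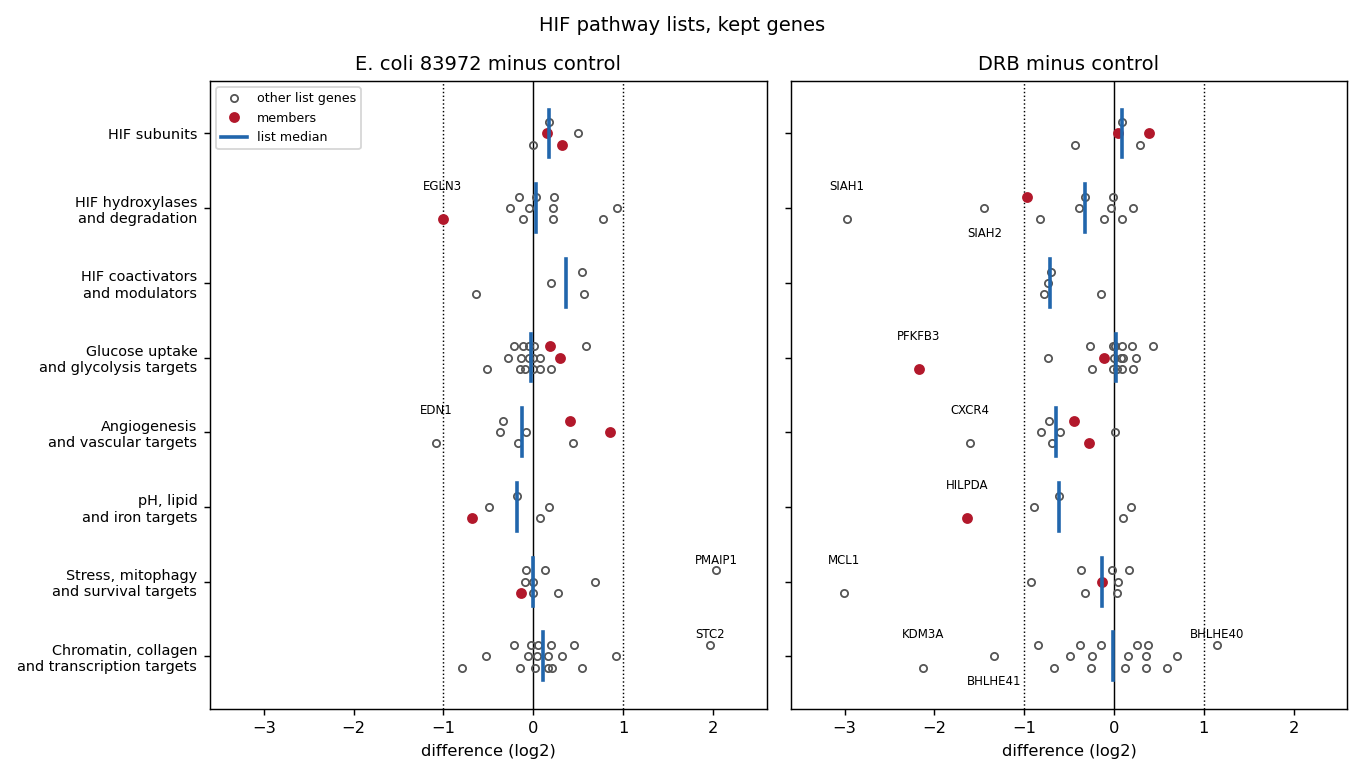
Differences (log2, horizontal axis) of the kept genes in 8 HIF pathway lists, E. coli 83972 minus control on the left and DRB minus control on the right. Red points are the genes of the set described here, open points the other list genes, blue bars list medians and dotted lines 2-fold, and names mark genes past 2-fold. PMAIP1 and STC2 stand alone on the right with E. coli 83972 (2.6% of 77 list genes, against 1.91% of all kept genes). With DRB 8 genes pass 2-fold on the left (10.4%, against 10.2%). Spike-in centring shifts all points of a panel alike.

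Between E. coli 83972 and DRB, 13 of the 68 other pathway genes were at least 2-fold higher with E. coli 83972 (19.1%, against 12.3% of all kept genes). None was at least 2-fold lower, against 0.386%. They included SIAH1 (3.75), MCL1 (3.14), PMAIP1 (2.96), KDM3A (2.57), STC2 (2.46), SIAH2 (2.38), BHLHE41 (2.25) and CXCR4 (2.05). The others were INSIG2 (1.39), CREBBP (1.27), EP300 (1.26), VHL (1.05) and DDIT4 (1.05). The second VHL probe set gave −0.0080 and the mean over both was 0.52, so this call rests on 1 of 2 probe sets. MCL1 ranged from −0.24 to 4.24 over its probe sets, and 3 of the 5 CREBBP probe sets passed 2-fold.

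RNA quality and cell type markers were read on each array. Signal of the 3′ GAPDH probe set exceeded that of the 5′ one by 0.16, 0.09 and 0.08 on the E. coli 83972, DRB and control arrays, and for ACTB by 2.00, 1.83 and 1.98. All 9 measured kidney carcinoma epithelial markers were at or above the filter level on each array, among them PAX8. LHX1, a kidney development gene among them, differed by −1.42 with E. coli 83972 and −1.66 with DRB. Of 16 leukocyte, endothelial and fibroblast markers, 4, 4 and 3 reached the filter level on the E. coli 83972, DRB and control arrays, and the highest of them read 5.60.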

How the data were processed

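The authors deposited log2 probe-set values, 49386 on each of 3 arrays. RMA and Partek are named in the submitters' processing notes, without versions, and how many arrays were normalized together is not given in the sources used here. No further normalization was applied. In the platform annotation 45259 probe sets had 1 gene symbol, 1327 had several and 2800 were not listed. Entrez identifiers gave 45178 of them a current symbol in a RefSeq table of GRCh38.p14.

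For each of 18239 genes the brightest probe set over the arrays was used, and a gene was kept if its highest value reached the median of all values. The threshold was 2-fold. No test was possible with 1 array per group, and the number of arrays limits precision. The code was tested on simulated data. Named genes were all members, VHL, ARNT, the EGLN genes, pathway genes past 2-fold or with the largest difference in their list, and the 3 genes nearest in pattern. PGK1, LDHA, GAPDH, PFKFB4, PLIN2, LPIN1, PAX8 and LHX1 were chosen after their values were seen. Members and lists were chosen with earlier results of these data known. Alternatives changed the probe set rule, the filter, the scaling and the threshold. Python 3.11.15, pandas 2.3.3 and statsmodels 0.14.6 (lowess, span 0.3) were used.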

Additional observations from a re-analysis of the deposited data

How the results depend on the processing

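Counts of HIF factors and targets past 2-fold were 1 for E. coli 83972 and 2 for DRB, each against control, and 2 when these were set against each other, as reported. In the same order they were 0, 1 and 1 when probe sets were averaged, and 0, 0 and 0 with plain-suffix probe sets, which left 2 genes (EGLN3 and SLC2A1). DRB against control gave 4 with centring on all or on poly-A spike-ins, ADM and EGLN3 being added, and E. coli 83972 against DRB also gave 4 under each, VEGFA and HILPDA being added. Loess correction left 0 for E. coli 83972 against control. At 1.5-fold E. coli 83972 against DRB gave 4 and E. coli 83972 against control gave 3. The other pathway genes past 2-fold with DRB against control numbered 7 as reported, 3 with plain-suffix probe sets, 22 with centring on all spike-ins, 25 on poly-A and 11 on hybridization spike-ins, and 23 at 1.5-fold. For E. coli 83972 against DRB they numbered 13 as reported, 5 with plain-suffix probe sets and 21 with poly-A centring, and for E. coli 83972 against control 3 as reported and 9 at 1.5-fold. The median of the set in DRB against control was −0.28 as reported, 0.089 with the mean over probe sets, −0.86 with centring on all and −0.93 on poly-A spike-ins. In E. coli 83972 against DRB it was 0.41 as reported, −0.15 with plain-suffix probe sets, 0.85 with centring on all and 0.94 on poly-A spike-ins. In E. coli 83972 against control it was 0.19 as reported, −0.16 with plain-suffix probe sets and −0.062 with centring on hybridization spike-ins. The cause of these shifts was not tested beyond the construction of each alternative: a centring moves all genes alike, and plain suffixes leave fewer genes. Of 168 values of single genes under the alternatives, 108 moved by less than the technical standard deviation and 60 by more, and 0 past 2-fold as reported changed sign. Dropping the filter left the 9 genes as they were. Its values are among the 108 but could not move, since all 9 genes had passed the filter. Signal near the filter level limits HILPDA with DRB. No paired analysis was possible because each group has 1 array.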
